A study of Rattus norvegicus with 18 samples.

Results

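The neurexins, neuroligins and calsyntenins are 3 families of synaptic adhesion proteins, and 7 of their genes were followed here in the rat hippocampus: Nrxn2 and Nrxn3, Nlgn1, Nlgn2 and Nlgn3, and Clstn1 and Clstn3. Every probe set of the array whose annotated symbol is one of these 7 was taken, which gave 9 of 15923 probe sets and 7 of 10412 annotated genes. The genes were selected on measured diet differences of these same arrays (alcohol, isocaloric and control), so those differences are given as a description. Calls by a threshold are counted for them beside the share of all probe sets called, and nothing is read from these counts or from how often a call was kept. Of the 9 probe sets, 8 had a mean level past the filter on low values and were among the 9520 tested. The probe set left out, Nrxn2 1368876_a_at, had a mean level of 5.17, as log2 of the signal plus 6.06, against a filter at 5.78 on that scale, while the dimmest member above the filter, Nlgn3 1387409_x_at, averaged 6.21.

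Neurexins sit in the presynaptic membrane and reach across the cleft to several partners, of which the neuroligins of the postsynaptic membrane were the first known. Neuroligin-1 is found mainly at excitatory synapses, neuroligin-2 at inhibitory ones and neuroligin-3 at both, and each gathers scaffold proteins and receptors behind the membrane. Calsyntenins are cadherin-like proteins. Calsyntenin-3 takes part in synapse formation and binds neurexins, and calsyntenin-1 links vesicle cargo to the kinesin motor.

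Total RNA of hippocampus from 18 samples was hybridised to Affymetrix arrays, 1 array per sample, in a study of prenatal alcohol exposure and learning. Diet was alcohol, isocaloric or control, and animals were either naive or trained in a procedure that the labels abbreviate as CFC without spelling it out. There were 4 arrays each of alcohol trained, alcohol naive and isocaloric trained samples, and 2 arrays each of isocaloric naive, control naive and control trained samples. Strain, sex, age, dose, the window of exposure and the time from training to tissue collection are not given in the sources used here. In designs of this kind an isocaloric diet replaces the calories of alcohol with another source. Replicates are not stated to be separate animals or litters, so a p-value here reflects only how far these arrays scatter, some of which can be technical. In homogenised tissue a lower signal cannot be split into fewer cells of a type and less RNA per cell.

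Total signal per array lay between 2.92e+06 and 3.13e+06 in linear units. MAS5, Affymetrix's summary algorithm, is named in the submitters' processing notes for control naive replicate 1 and control trained replicate 2 only. On these 2 arrays 100% of values were written with 6 digits or fewer, against 3.10% to 3.67% on the others. They were therefore treated as a possible processing batch that holds control-diet samples alone. Control naive replicate 2, outside that pair, had the lowest mean correlation with the other arrays (0.960) and the lowest median signal (67.7). The neuron markers were present: all 11 of the 12 listed genes on the array passed the filter, and the dimmest had a median signal of 492. Transthyretin (Ttr), a transcript of the choroid plexus, lay between 5927 and 7331 on alcohol trained replicate 4, isocaloric trained replicate 3, alcohol naive replicate 2 and control trained replicate 1, and between 62.5 and 755 on the other 14 arrays.

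The RefSeq table of promoters (assembly GRCr8) held 5 of the 7 genes; Nrxn2 and Nrxn3 had no entry. The 250 bases before the annotated start are shown for Clstn3, Nlgn3 and Nlgn2, whose alcohol arrays all lay above all control arrays, and for Nlgn1, whose mean was lowest in the alcohol diet. Capitals mark exact matches, on either strand, to 4 motifs. The cyclic AMP response element was searched as TGACGTCA and the GC box as GGGCGG. The CCAAT box was searched by the letters of its name, and the TATA element as TATAAA.
Clstn3: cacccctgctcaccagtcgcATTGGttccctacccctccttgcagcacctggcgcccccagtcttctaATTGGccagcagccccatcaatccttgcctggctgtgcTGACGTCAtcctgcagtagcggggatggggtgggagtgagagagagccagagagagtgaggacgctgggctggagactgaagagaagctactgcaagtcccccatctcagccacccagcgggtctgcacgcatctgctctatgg
Nlgn3: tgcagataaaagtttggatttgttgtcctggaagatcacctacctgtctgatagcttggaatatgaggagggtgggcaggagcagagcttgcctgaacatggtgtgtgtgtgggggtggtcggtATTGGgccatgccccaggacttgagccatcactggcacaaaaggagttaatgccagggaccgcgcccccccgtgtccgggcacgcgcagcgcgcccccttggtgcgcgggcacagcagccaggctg
Nlgn2: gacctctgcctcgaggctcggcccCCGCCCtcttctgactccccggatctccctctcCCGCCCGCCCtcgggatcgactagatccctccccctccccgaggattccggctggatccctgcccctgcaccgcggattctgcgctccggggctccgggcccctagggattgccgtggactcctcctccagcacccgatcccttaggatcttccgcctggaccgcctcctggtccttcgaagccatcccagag
Nlgn1: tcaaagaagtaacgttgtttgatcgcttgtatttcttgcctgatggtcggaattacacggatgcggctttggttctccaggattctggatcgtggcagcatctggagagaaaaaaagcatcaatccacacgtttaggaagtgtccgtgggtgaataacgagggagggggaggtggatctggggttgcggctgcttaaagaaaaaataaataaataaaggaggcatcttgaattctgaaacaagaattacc
The Clstn3 window, chr4:159051070-159051319 on the minus strand, held the full cyclic AMP response element between 144 and 137 bases before the start and 2 CCAAT boxes. The Nlgn3 window, chrX:70469228-70469477 on the plus strand, held 1 CCAAT box. The Nlgn2 window, chr10:55056579-55056828 on the minus strand, held 3 GC boxes, 2 of which overlap. The Nlgn1 window, chr2:110930677-110930926 on the minus strand, held none of the 4 motifs and was the poorest in G and C at 44.4%, against a median of 51.2% over all promoters. Among 33469 promoter windows of the same length, 1.587% held the cyclic AMP response element, 30.47% a GC box, 34.02% a CCAAT box and 12.93% a TATA box. These are matches of letters and say nothing of binding in this tissue.

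**Figure D1:**
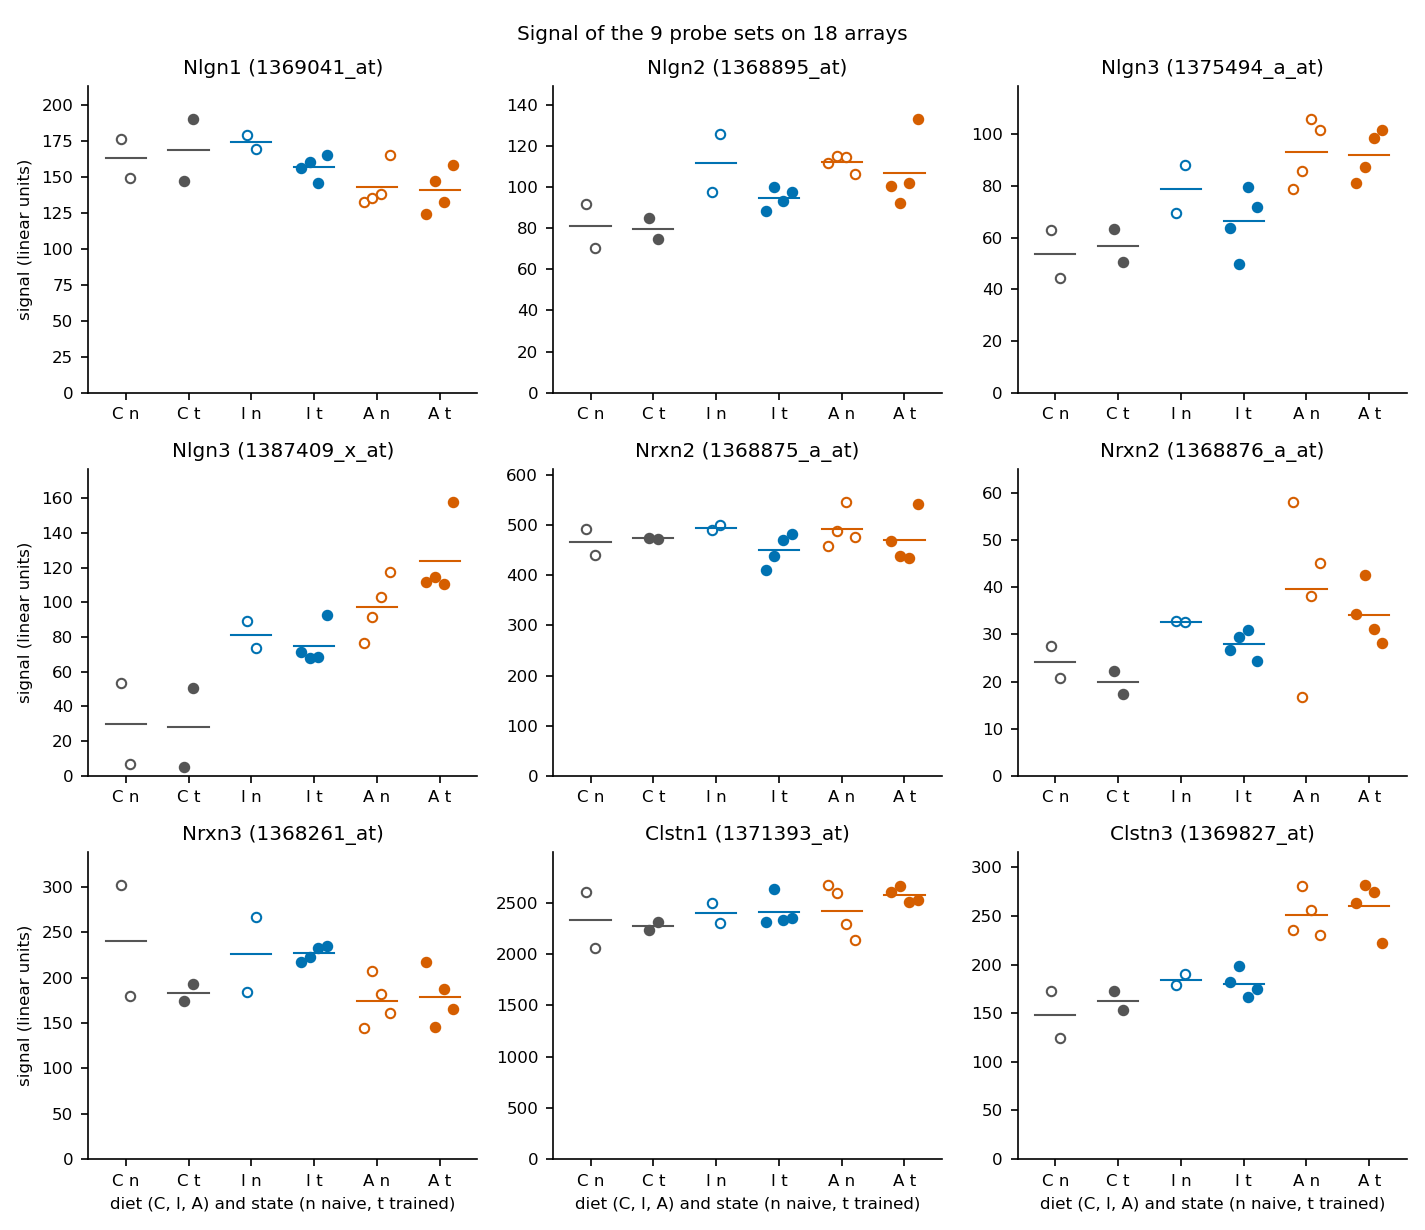
Signal (linear units, each axis from 0) of the 9 probe sets on the 18 arrays, by diet (C control, I isocaloric, A alcohol) and state (n naive, open points; t trained, filled points), with a line at each group's mean. Clstn3 lies between 223 and 282 in the alcohol diet, above every other array, and 2 control arrays of Nlgn3 1387409_x_at lie at 5.19 and 6.64.

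Among the presynaptic genes, the brighter Nrxn2 probe set was nearly level, and Nrxn3 was lower in the alcohol diet than in the isocaloric diet. The dimmer Nrxn2 probe set, below the filter, had means of 36.8 in alcohol, 29.5 in isocaloric and 22.0 in control arrays. Nrxn2 encodes neurexin-2, and its brighter probe set, 1368875_a_at, is of the type that matches several transcripts of 1 gene. Its signal in the alcohol diet was 469, 438, 434 and 542 in trained and 459, 488, 546 and 477 in naive samples. In the isocaloric diet it was 411, 438, 469.8 and 482 in trained and 489.6 and 501 in naive samples. In the control diet it was 475 and 473 in trained and 491 and 441 in naive samples. The 3 diets overlapped throughout, and the coefficient of variation over all 18 arrays was 7.39%.

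The dimmer Nrxn2 probe set, 1368876_a_at, was read at 34.4, 42.6, 31.2 and 28.1 in alcohol trained and 58.1, 16.6, 38.2 and 45.2 in alcohol naive samples. Isocaloric samples gave 26.7, 29.4, 31.0 and 24.4 when trained and 32.8 and 32.6 when naive. Control samples gave 22.2 and 17.4 when trained and 27.6 and 20.8 when naive. The control arrays were among the lowest, but alcohol naive replicate 2 at 16.6 was lower than all of them, and every isocaloric array lay inside the range of the alcohol arrays. All these values lay between the 19.1 and the 44.1 percentile of their own arrays, and across the 18 arrays this probe set showed no relation to the brighter one (r = 0.0027 on the log2 scale).

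Nrxn3 (1368261_at) encodes neurexin-3. The alcohol diet gave 217, 145, 188 and 165 in trained and 144, 208, 182 and 161 in naive samples, a mean of 176 ± 27.1 (SD, n = 8). The isocaloric diet gave 217, 223, 232 and 235 in trained and 185 and 267 in naive samples, a mean of 226 ± 26.7 (SD, n = 6). The control diet gave 174 and 193 in trained and 302 and 179 in naive samples, a mean of 212 ± 60.3 (SD, n = 4). In trained samples every isocaloric array was above every alcohol array, with 217.2 against 217.1 as the closest pair, whereas the naive arrays of these diets overlapped. Control naive replicate 1 held the highest value of the series, and without it the alcohol minus control difference in log2 level went from -0.24 to -0.054, while without control naive replicate 2 it was -0.42.

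The postsynaptic genes did not move together: Nlgn3 was highest in the alcohol diet and lowest in the control diet, Nlgn2 was higher in the alcohol than in the control diet, and Nlgn1 was lowest in the alcohol diet. Nlgn1 (1369041_at), which encodes neuroligin-1, gave 124, 147, 132 and 158 in alcohol trained and 132, 135, 138 and 165 in alcohol naive samples. In the isocaloric diet it gave 156, 160.1, 146 and 165 in trained and 179 and 169 in naive samples. In the control diet it gave 147 and 190.1 in trained and 176 and 149 in naive samples. The alcohol mean of 141 ± 13.9 (SD, n = 8) lay below the isocaloric mean of 162 ± 11.4 (SD, n = 6) and the control mean of 166 ± 20.9 (SD, n = 4), with overlap in both comparisons.

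Nlgn2 (1368895_at) encodes neuroligin-2, the family member of inhibitory synapses. It gave 100.5, 92.3, 102 and 133 in alcohol trained and 112, 115, 115 and 106 in alcohol naive samples. Isocaloric samples gave 88.4, 100.1, 93.0 and 97.7 when trained and 97.6 and 126 when naive. Control samples gave 84.8 and 74.7 when trained and 91.8 and 70.5 when naive. All 8 alcohol arrays stood above all 4 control arrays, with 92.3 against 91.8 as the closest pair, and the isocaloric arrays overlapped both.

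Nlgn3 encodes neuroligin-3 and had a pair of probe sets. The first, 1375494_a_at, gave 81.1, 87.2, 98.5 and 102 in alcohol trained and 78.7, 85.9, 106 and 102 in alcohol naive samples. Isocaloric samples gave 63.6, 49.9, 79.7 and 71.9 when trained and 69.4 and 88.2 when naive. Control samples gave 63.2 and 50.6 when trained and 63.0 and 44.5 when naive. The alcohol and control arrays did not overlap, and the means were 92.6 ± 10.6 (SD, n = 8) for alcohol, 70.4 ± 13.2 (SD, n = 6) for isocaloric and 55.3 ± 9.31 (SD, n = 4) for control.

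The second Nlgn3 probe set, 1387409_x_at, has a suffix that marks probes able to hybridise with other transcripts. Alcohol samples gave 112, 115, 111 and 158 when trained and 76.3, 91.7, 103 and 117 when naive. Isocaloric samples gave 71.4, 68.1, 68.4 and 92.7 when trained and 89.1 and 73.4 when naive. Control samples gave 5.19 and 50.7 when trained and 53.4 and 6.64 when naive. All control arrays lay below all others, but they formed a high and a low pair. The low pair, control trained replicate 1 and control naive replicate 2, stood at the 9.37 and the 11.1 percentile of their arrays, near the 10th percentile of all values (6.06), and the high pair were the arrays whose notes name MAS5.

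**Figure D2:**
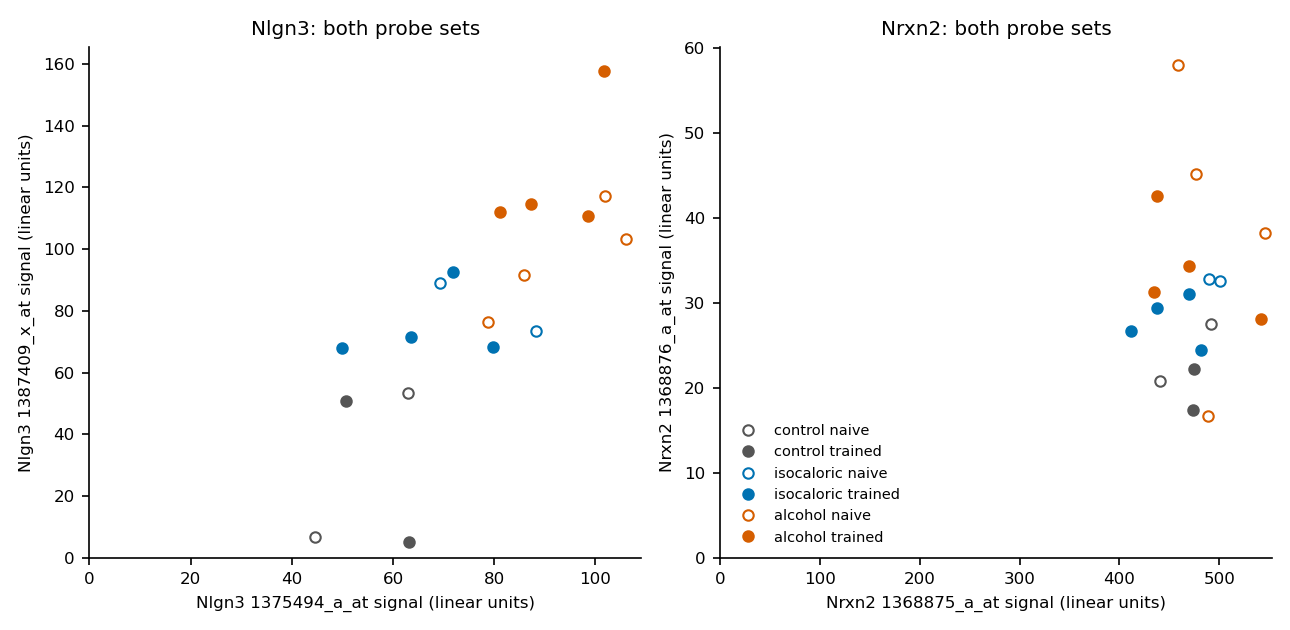
Signal (linear units, axes from 0) of one probe set against the other on the same array, for Nlgn3 (left) and Nrxn2 (right); each point is 1 array, coloured by diet, filled when trained and open when naive. The Nlgn3 pair shares its order of diets, with 2 control arrays at 5.19 and 6.64 at the foot of the panel, and the Nrxn2 pair shows no shared order.

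On the log2 scale the Nlgn3 probe sets correlated at r = 0.68 over the 18 arrays and at 0.20 after each group's mean was removed. Each point is 1 RNA sample read by both probe sets, and no p-value is attached.

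Of the calsyntenins, Clstn3 was the 1 member whose alcohol arrays all stood above those of both other diets, and Clstn1 was nearly level. Clstn1 (1371393_at), the calsyntenin that docks kinesin, gave 2604, 2662, 2507 and 2529 in alcohol trained and 2672, 2601, 2294 and 2133 in alcohol naive samples. Isocaloric samples gave 2310.1, 2633, 2332 and 2357 when trained and 2497 and 2305 when naive. Control samples gave 2239 and 2315 when trained and 2602 and 2064 when naive. The diets overlapped, with a coefficient of variation of 7.73% over the 18 arrays.

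Clstn3 (1369827_at), the calsyntenin tied to synapse formation, gave 263, 282, 274 and 223 in alcohol trained and 236, 281, 256 and 231 in alcohol naive samples, a mean of 256 ± 23.5 (SD, n = 8). Isocaloric samples gave 182, 198, 167 and 175 when trained and 179 and 190.3 when naive, a mean of 182 ± 11.1 (SD, n = 6). Control samples gave 173 and 153 when trained and 173 and 124 when naive, a mean of 156 ± 22.7 (SD, n = 4). Every alcohol array was above every array of both other diets, and the isocaloric and control arrays overlapped. The means fell in the order alcohol, isocaloric, control, as for both Nlgn3 probe sets, Nlgn2, Clstn1 and Nrxn2 1368876_a_at. For Clstn3 the step from isocaloric to control was 0.23 on the log2 scale and was not called (limma adjusted p = 0.146).

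The first diet comparison, alcohol against isocaloric, asks what the alcohol diet adds beyond a diet matched to it in calories. Differences were taken on log2(signal + 6.06), averaging the trained-sample and the naive-sample difference. Clstn3 was 0.47 higher (SE 0.082), the 2 Nlgn3 probe sets were 0.34 (SE 0.12) and 0.45 (SE 0.32) higher, and Nlgn2 differed by 0.084 (SE 0.094), a value that was -0.0026 without isocaloric naive replicate 1 and 0.015 in naive samples alone. Nrxn3 differed by -0.35 (SE 0.12) and Nlgn1 by -0.22 (SE 0.082). The Nrxn3 difference was -0.22 without isocaloric naive replicate 2 and -0.48 without replicate 1. Nrxn2 1368875_a_at and Clstn1 differed by 0.025 (SE 0.064) and 0.054 (SE 0.066). The fit pools the spread of all 6 groups, control groups included. For Nlgn3 1387409_x_at their log2 SDs were 1.57 and 1.65, against 0.18 to 0.25 in the groups compared, which widened its SE of 0.32.

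At an adjusted p under 0.05 (limma, Benjamini-Hochberg over 9520 probe sets) 1 of the 8 members was called higher, Clstn3, beside a background of 1.47% of all probe sets. Clstn3 was also the 1 member of 8 whose diets did not overlap, beside 0.651% of all probe sets that stood higher without overlap. Since the members were chosen with these diet results known, nothing is read from either count. The members' median difference was 0.069, against -0.018 over all probe sets tested. In trained samples alone Clstn3 differed by 0.51 (SE 0.10) and in naive samples alone by 0.43 (SE 0.13), without overlap in either. Beside this, 4.59% of all probe sets in trained and 13.7% in naive samples stood higher without overlap. In either direction 4 of 8 members in trained and 2 of 8 in naive samples did not overlap, beside 9.2% and 29.1% of all probe sets. These counts are a description too. The Clstn3 call was lost if either isocaloric naive array was left out (0.45 without replicate 1 and 0.49 without replicate 2), and with the Gapdh 3' to 5' signal ratio, a sign of RNA length, as a covariate (0.44). Nrxn3 met the threshold when control naive replicate 1 or replicate 2 was left out, which raised the count to 2. The Gapdh log2 ratio averaged 0.26 (SD 0.12) in alcohol, 0.13 (SD 0.040) in isocaloric and 0.26 (SD 0.073) in control arrays.

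The second, alcohol against control, gave larger differences for the members higher in alcohol samples, while Nrxn3 differed less and Nlgn1 about as much. Nlgn3 was 0.69 (SE 0.13) higher on 1375494_a_at and 2.12 (SE 0.35) higher on 1387409_x_at, Clstn3 was 0.70 (SE 0.090) higher and Nlgn2 was 0.42 (SE 0.10) higher. Nlgn1 differed by -0.22 (SE 0.089), Nrxn3 by -0.24 (SE 0.13), Clstn1 by 0.12 (SE 0.073) and Nrxn2 1368875_a_at by 0.031 (SE 0.070). The dim Nrxn2 probe set, fitted without the filter, differed by 0.57 (SE 0.21).

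By the same threshold 4 of the 8 members were called higher, both Nlgn3 probe sets, Clstn3 and Nlgn2, beside 11.3% of all probe sets, and 0 were called lower, beside 8.61%. These 4 were also the members whose alcohol and control arrays did not overlap, beside 3.98% of all probe sets. The choice of members used these results, so the counts are a description. Nlgn3 1387409_x_at averaged 4.72 in control arrays, under the filter of 5.78. It was tested only because its alcohol (6.84) and isocaloric (6.37) levels raised its mean, so its call is no independent result. The size of the Nlgn3 1387409_x_at difference rested on which control arrays were used: it was 3.26 without the pair named with MAS5 and 0.98 without the other pair. Leaving out control trained replicate 1 or control naive replicate 2 gave 1.54 and 1.56. Clstn3 gave 0.77 without the MAS5 pair and 0.63 without the other. The Nlgn2 call was lost without control naive replicate 2 (0.33), without control trained replicate 2 (0.38), without the control pair not named with MAS5 (0.37), without the 4 arrays high in Ttr (0.40) and with the replicate number as a block (0.38).

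The third, isocaloric against control, compares the diets without alcohol and shares its control arrays with the second. Nlgn3 1387409_x_at was 1.67 (SE 0.38) higher, Nlgn3 1375494_a_at 0.35 (SE 0.14) higher, Nlgn2 0.33 (SE 0.11) higher and Clstn3 0.23 (SE 0.098) higher in isocaloric samples. Nrxn3 differed by 0.11 (SE 0.14), Clstn1 by 0.064 (SE 0.079), Nrxn2 1368875_a_at by 0.0055 (SE 0.076) and Nlgn1 by 0.0030 (SE 0.097). One member of 8 was called higher, Nlgn3 1387409_x_at, beside 4.24% of all probe sets, and it was the 1 member without overlap, beside 3.49%. The choice of members used these values too, so the counts are a description. With a control mean of 4.72, Nlgn3 1387409_x_at passed the filter only through its levels in the other diets. Its call was lost without control trained replicate 1 (1.08), without control naive replicate 2 (1.11) and without both (0.53). It was also lost without isocaloric naive replicate 1 (1.60) or replicate 2 (1.73), which changed the size little. Without control naive replicate 1 the count was 4, as Nlgn2 (0.42), Nlgn3 1375494_a_at (0.46) and Clstn3 (0.34) were called too, and without alcohol trained replicate 4 it was 2, with Nlgn2 (0.33) added. Without control naive replicate 2 the same 3 differences were smaller, at 0.24 for Nlgn2, 0.24 for Nlgn3 1375494_a_at and 0.12 for Clstn3.

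**Figure D3:**
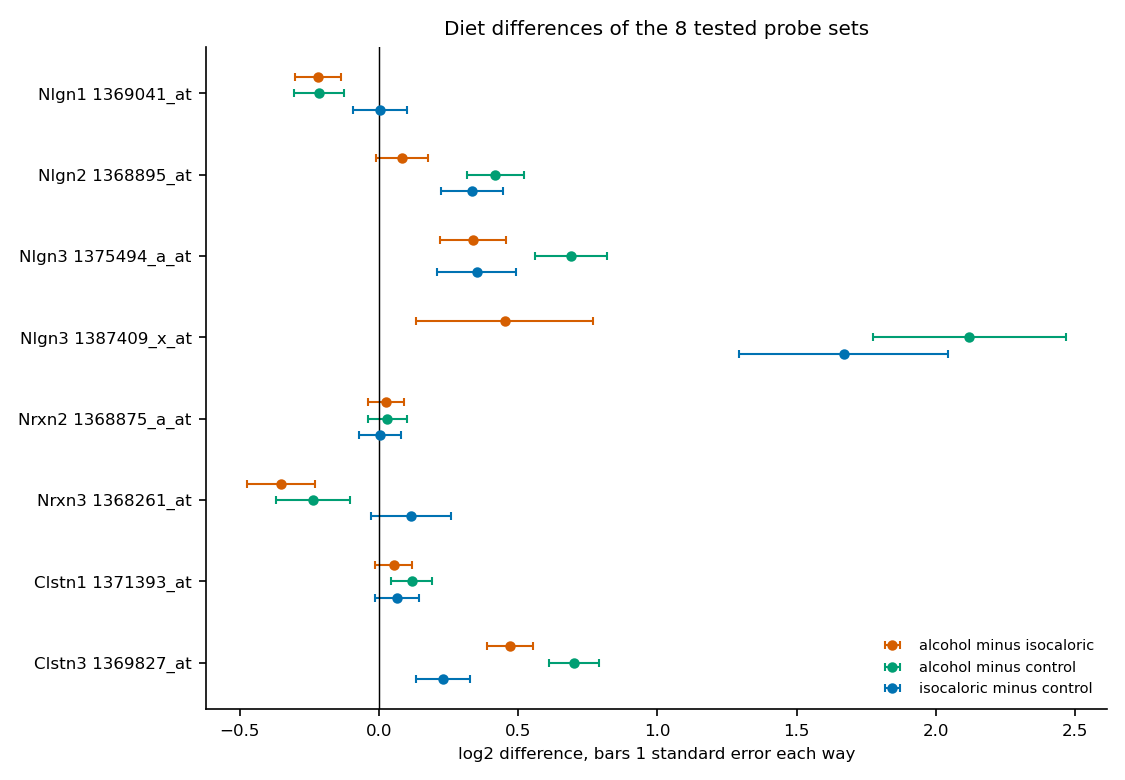
Differences in log2(signal + 6.06) between diets for the 8 tested probe sets, with bars of 1 standard error each way, for alcohol minus isocaloric, alcohol minus control and isocaloric minus control. Nlgn3 1387409_x_at reaches 2.12 against control, Clstn3 lies at 0.47 and 0.70 in both alcohol comparisons, and Nlgn1 and Nrxn3 lie below 0 in both.

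Other measures moved with the control diet. Of 10 listed genes of endothelial and mural cells, 9 were on the array and 5 passed the filter (Cldn5, Flt1, Esam, Rgs5 and Slc2a1), and all 5 were called higher in alcohol and in isocaloric than in control samples, with median differences of 0.79 and 0.88. Of all probe sets 11.3% and 4.24% were called higher in these 2 comparisons, with medians of -0.00080 and 0.025. The summed signal of that list was 928 to 1147 in alcohol, 935 to 1058 in isocaloric and 569 to 650 in control arrays, with Pecam1, Kdr, Pdgfrb and Vwf below the filter. In alcohol against isocaloric 0 of the 5 were called by limma and 0 had an unadjusted p under 0.05. The summed neuron list overlapped, with 14117 to 17379 in alcohol, 15218 to 16277 in isocaloric and 12964 to 15559 in control arrays.

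The actin 3' to 5' log2 ratio averaged 0.64 (SD 0.094) in control arrays, 0.40 (SD 0.16) in alcohol and 0.41 (SD 0.079) in isocaloric arrays. It was highest on control naive replicate 2, at 0.73. With that ratio as a covariate the alcohol minus control differences were 0.62 for Clstn3, 0.50 and 1.58 for the Nlgn3 probe sets and 0.51 for Nlgn2. Of these Clstn3 alone met the threshold, and 315 probe sets did so in all against 1895 without the covariate. The part of the vessel cell genes in the members' differences was not tested.

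Other cell lists were compared between the alcohol and the isocaloric diet, where 1.47% of all probe sets were called higher. The summed signals of the microglia, hippocampal neuron and astrocyte lists overlapped between these diets. For microglia the overlap was narrow, with 1051.45 as the lowest alcohol and 1051.79 as the highest isocaloric value. Of 8 microglia genes 6 passed the filter, with a median difference of 0.22, where limma called 0 and 3 had an unadjusted p under 0.05. Their summed signal was 1051 to 1220 in alcohol, 946 to 1052 in isocaloric and 1042 to 1452 in control arrays, with Cd68 and Itgam below the filter. Of 9 hippocampal neuron genes 1 was called higher in alcohol than in isocaloric samples, the calcium sensor Hpca at 0.53 (SE 0.11, limma adjusted p = 0.0176), and the median was 0.12. Their summed signal was 8034 to 10192 in alcohol, 7249 to 8881 in isocaloric and 7945 to 9121 in control arrays. Of 9 astrocyte genes 1 was called higher, the glycolytic enzyme Aldoc at 0.36 (SE 0.083, limma adjusted p = 0.0268), and the median was 0.084. The part of these lists in the Clstn3 difference was not tested.

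Training was not used to choose the members, so it was tested. No member changed with training by the threshold used. Averaged over the 3 diets, the trained minus naive differences ran from -0.10 for Nlgn2 to 0.055 for Clstn3. By limma 0 of the 8 probe sets passed an adjusted p of 0.05 and 0 had an unadjusted p under 0.05, beside 0.0105% called among all 9520. The members' median was -0.049, against -0.0021 over all probe sets tested.

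Clstn3 differed by 0.055 with training (95% interval -0.10 to 0.21, limma adjusted p = 0.952). Nlgn2 differed by -0.10 (interval -0.28 to 0.074, adjusted p = 0.933 by limma), and 8 of 10 trained arrays lay below the naive mean of their own diet. Nlgn3 differed by -0.055 on 1375494_a_at (interval -0.28 to 0.17) and by 0.034 on 1387409_x_at (interval -0.56 to 0.63), with limma adjusted p-values of 0.964 and 0.996. Nrxn3 differed by -0.090 (interval -0.32 to 0.14, adjusted p = 0.952 by limma). For Nlgn1, Nrxn2 1368875_a_at and Clstn1 the differences were -0.042, -0.060 and 0.023, with limma adjusted p-values of 0.962, 0.947 and 0.975. Their intervals were -0.19 to 0.11, -0.18 to 0.060 and -0.10 to 0.15.

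**Figure D4:**
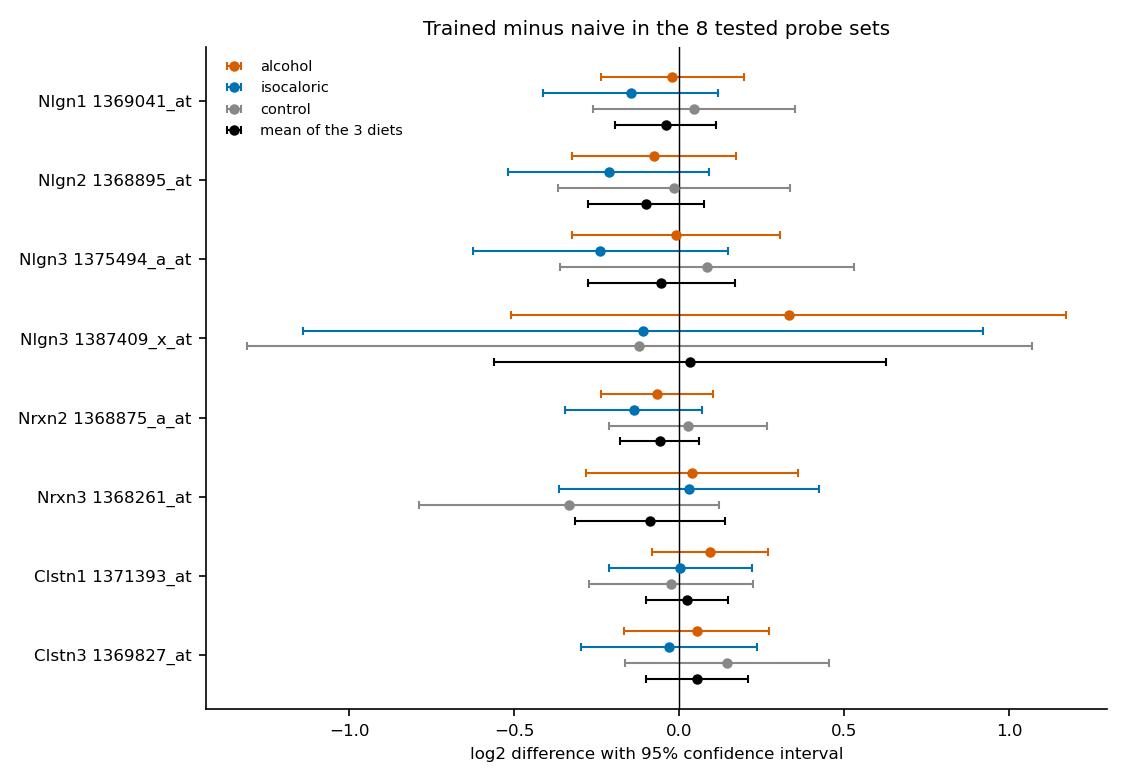
Trained minus naive differences in log2(signal + 6.06) with 95% confidence intervals for the 8 tested probe sets, in each diet and as the mean of the 3 diets. Every interval includes 0, and that of Nlgn3 1387409_x_at is the widest, from -0.56 to 0.63 for the mean of the diets.

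Within diets, 0 of 8 probe sets passed in alcohol, in isocaloric or in control samples by limma, and 0 had an unadjusted p under 0.05, beside 0%, 0% and 0.0315% of all probe sets called. In alcohol samples Clstn1 was 0.092 (SE 0.084) and Nlgn3 1387409_x_at 0.33 (SE 0.40) higher after training, with limma adjusted p-values of 0.801 and 0.860. The SE of 0.40 includes the wide spread of the control arrays of that probe set. In isocaloric samples 6 of 8 differences were below 0, led by Nlgn3 1375494_a_at at -0.24 (SE 0.18) and Nlgn2 at -0.21 (SE 0.15), with limma adjusted p-values of 0.823 and 0.790. For 2 of the 8, Nlgn1 and Nrxn2 1368875_a_at, the isocaloric trained and naive arrays did not overlap, beside 22.9% of all probe sets, a share near the background. In control samples Nrxn3 differed by -0.34 (SE 0.22, limma adjusted p = 0.597), where the naive arrays themselves were 302 and 179.

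Whether training acted differently in the alcohol and the isocaloric diet was tested as a difference of differences. All 8 values were above 0, from 0.0091 for Nrxn3 to 0.44 for Nlgn3 1387409_x_at, and their median was 0.11 against 0.0012 over all probe sets. None passed: by limma 0 of 8 had an adjusted or an unadjusted p under 0.05, every adjusted p was 1.00, and 0% of all 9520 probe sets were called. The standard errors ran from 0.13 for Nrxn2 1368875_a_at to 0.63 for Nlgn3 1387409_x_at, so that interactions of the size of the training effects above were not detectable with these arrays. The fit pools the spread of all 6 groups. For Nlgn3 1387409_x_at the control groups, which are not in this comparison, had log2 SDs of 1.57 and 1.65. The alcohol and isocaloric groups had 0.18 to 0.25, so its standard error came largely from control arrays. All 8 values share the isocaloric naive group of 2 arrays, and the sign for Nrxn3 turned to -0.030 when arrays were median-centred.

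Among themselves the members fell into no single pattern. Over the 18 arrays Nlgn3 1375494_a_at correlated with Nlgn2 at r = 0.78 and with Clstn3 at 0.76, but within groups these were 0.46 and 0.046. Nlgn1 ran against Clstn3 at -0.60, and -0.15 within groups. Clstn1 and Clstn3 correlated at 0.57 over all arrays and 0.58 within groups. Higher within groups were Nlgn1 with Nlgn3 1387409_x_at at 0.76 (-0.078 over all arrays) and Nlgn2 with Nrxn2 1368875_a_at at 0.68 (0.56 over all arrays). The arrays share the diet groups and the common scaling, and these values carry no test.

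For each member the 3 genes most alike over the 18 arrays were taken by Pearson correlation of log2 levels among 6912 genes, with the correlation within groups in second place. Clstn3 was followed most closely by Atp9a (0.89 and 0.73), Pcsk1n (0.87 and 0.50) and Igfbp7 (0.87 and 0.66). For Nlgn3 these were Nacc1 (0.87 and 0.65), Cdh2 (0.83 and 0.58) and Cyth1 (0.82 and 0.72). For Nlgn2 they were Phf1 (0.88 and 0.74), Bace1 (0.87 and 0.73) and Usp47 (0.83 and 0.58).

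Nlgn1 was nearest to Gapdhs (0.88 and 0.83), Zmat1 (0.86 and 0.75) and Slc11a2 (0.85 and 0.91). Clstn1 was nearest to Olfm1 (0.86 and 0.93), Atp2a2 (0.85 and 0.87) and Dnm1 (0.84 and 0.80). Nrxn2 and Nrxn3 had looser neighbours, Pik3ip1 (0.78), Pde4a (0.76) and Mxra7 (0.73) for Nrxn2 and Prkdc (0.77), Nol11 (0.76) and Slc29a1 (0.76) for Nrxn3. The highest of 6912 correlations is large by selection alone, so these names are a description.

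The rest of the pathway was followed in 5 gene lists, read beside the share of all probe sets called. In alcohol against isocaloric 3.06% of all were called, 1.47% higher and 1.59% lower. In alcohol against control the share was 19.9%, with 11.3% higher and 8.61% lower, and in isocaloric against control 7.05%, with 4.24% higher and 2.8% lower. The median differences over all probe sets in these comparisons were -0.018, -0.00080 and 0.025. Adjusted p-values of list genes are from limma over all 9520 probe sets, and the lists were drawn up with earlier results of these arrays known. Calls against control leaned on single control arrays: of the 15 list calls named in alcohol against control, 13 were lost without control naive replicate 2, 11 without control trained replicate 1 and 7 without control trained replicate 2. Kif5b and Shank3 were called in each of these fits. With the actin ratio as a covariate 14 of the 15 were lost, and Kif5b was kept. All 4 list calls named in isocaloric against control were lost without isocaloric naive replicate 2 or control trained replicate 2. Without isocaloric naive replicate 1, control naive replicate 2 or control trained replicate 1, Dlg2 alone was kept.

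Of the other neurexin ligands and relatives, 12 were on the array and 8 passed the filter, with medians of -0.040, 0.070 and 0.051 in the 3 comparisons. By limma 0 were called in alcohol against isocaloric, where 2 had an unadjusted p under 0.05, led by the latrophilin Adgrl2 (-0.28, SE 0.10, adjusted p = 0.120). Against control 2 of 8 rose in alcohol samples, Clstn2, the third calsyntenin, by 0.33 (SE 0.098, adjusted p = 0.0276) and the latrophilin Adgrl1 by 0.41 (SE 0.13, adjusted p = 0.0341), and the latrophilin Adgrl3 rose in isocaloric samples by 0.39 (SE 0.12, adjusted p = 0.0497). The Clstn2 call was lost in 9 of 32 alternatives, that of Adgrl1 in 11 and that of Adgrl3 in 25 of 31. Without control naive replicate 2 Adgrl1 differed by 0.15 and Clstn2 by 0.22, and without control naive replicate 1 Adgrl1 differed by 0.67.

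Of the scaffolds, motors and sorting proteins that bind these families inside the cell, 27 were on the array and 24 passed, with medians of -0.012, 0.12 and 0.049. In alcohol against isocaloric 2 fell: the kinesin heavy chain Kif5b fell by 0.44 (SE 0.10, adjusted p = 0.0263) and the endosomal sorting protein Snx27 fell by 0.34 (SE 0.086, adjusted p = 0.0407). In alcohol against control 3 rose, led by the postsynaptic scaffold Shank3 at 0.59 (SE 0.11, adjusted p = 0.00142), with Apba1 at 0.27 and Dlgap3 at 0.33, and 3 fell, Kif5b at -0.76 (SE 0.11, adjusted p = 0.000312), Snx27 at -0.29 and Dlg1 at -0.19. In isocaloric against control the scaffolds Dlg2 (1.01, SE 0.22, adjusted p = 0.0143) and Magi1 (0.44, SE 0.12, adjusted p = 0.0403) rose. Against isocaloric the Kif5b call was lost in 7 of 32 alternatives, among them without isocaloric trained replicate 3, alcohol naive replicate 3 or either isocaloric naive array, and that of Snx27 in 17. Against control Kif5b was lost in 0 of 32, Shank3 in 1, Dlg1 in 9, Apba1 in 10, Snx27 in 16 and Dlgap3 in 22, and in isocaloric against control Dlg2 was lost in 4 of 31 and Magi1 in 21. Without control naive replicate 2 Apba1 differed by 0.12, and without control naive replicate 1 by 0.41. Snx27 against isocaloric differed by -0.23 without isocaloric naive replicate 1.

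Of the proteases that cut these proteins, 8 were on the array and 7 passed, with medians of -0.15, -0.016 and 0.21. By limma 0 were called in alcohol against isocaloric, where 1 had an unadjusted p under 0.05, Psen2, a catalytic subunit of gamma-secretase (-0.30, SE 0.12, adjusted p = 0.163). In alcohol against control Bace1, the beta-secretase, rose by 0.45 (SE 0.12, adjusted p = 0.0175) and Psenen, a gamma-secretase subunit, fell by 0.18 (SE 0.054, adjusted p = 0.0298). The Bace1 call was lost in 7 of 31 alternatives and that of Psenen in 10 of 32. In isocaloric against control 0 were called by limma and 2 had an unadjusted p under 0.05, of which Bace1 gave 0.37 (SE 0.13, adjusted p = 0.0915).

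Of other synaptic adhesion families, 26 were on the array and 23 passed, with medians of 0.0072, 0.20 and 0.20. By limma 0 were called in alcohol against isocaloric, where 4 had an unadjusted p under 0.05 and Flrt2 was nearest at -0.39 (SE 0.11, adjusted p = 0.0670). In alcohol against control 5 rose and 1 fell: Cntnap1, which builds the junction of axon and myelin beside the node of Ranvier, by 0.47 (SE 0.11, adjusted p = 0.00586), N-cadherin (Cdh2) by 0.29 (SE 0.072, adjusted p = 0.00953), the teneurin Tenm4 by 0.31 (SE 0.096, adjusted p = 0.0295), and the receptor phosphatase Ptprd at -0.34 (SE 0.096, adjusted p = 0.0193). Cntnap1 also rose in isocaloric against control, by 0.48 (SE 0.11, adjusted p = 0.0195), the 1 call of 23 there. In alcohol against control the call of Cntnap1 was lost in 3 of 32 alternatives, that of Cdh2 in 5 and those of Tenm4 and Ptprd in 7 each, and in isocaloric against control that of Cntnap1 in 8. Without control naive replicate 2 Tenm4 differed by 0.18 and Ptprd by -0.20.

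Of the RNA-binding regulators of neurexin splicing, 8 were on the array and 6 passed, with medians of -0.047, -0.062 and 0.11. Ptbp2, the neuronal polypyrimidine tract protein, fell by 0.43 in alcohol against isocaloric samples (SE 0.11, adjusted p = 0.0403), a call lost in 17 of 32 alternatives. Ptbp1, its relative outside neurons, rose in alcohol against control by 0.27 (SE 0.084, adjusted p = 0.0327), a call lost in 14 of 32 alternatives, and gave 0.30 (SE 0.091, adjusted p = 0.0521) in isocaloric against control, where limma called 0 and 2 had an unadjusted p under 0.05. The probe sets here do not resolve the splice forms of the neurexins.

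With training, 0 genes of the 5 lists were called by limma, and 1, 2, 0, 1 and 0 of them, in the order above, had an unadjusted p under 0.05. The smallest p of each list belonged to Nxph1 (-0.16, adjusted p = 0.780), Shank3 (0.24, adjusted p = 0.758), Psen2 (0.19, adjusted p = 0.885), Epha4 (0.15, adjusted p = 0.791) and Rbfox3 (0.11, adjusted p = 0.933). In the difference of training effects between alcohol and isocaloric diets 0 were called by limma and 0, 1, 0, 1 and 0 had an unadjusted p under 0.05, with Cbln2 (-0.39), Dlgap3 (0.45), Adam10 (-0.35), Cadm3 (0.44) and Rbfox2 (0.33) nearest, each at an adjusted p of 1.00 by limma.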

How the data were processed

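Hippocampal RNA of 18 rat samples was measured on 1 Affymetrix array each, and the deposited values are 1 intensity per probe set on a linear scale. The submitters' processing notes name MAS5 for 2 control-diet samples, and how the other values were summarised was not given in the sources used here. With 2% of values trimmed from both ends, the array means were close to 150, a common scaling that can hide a change of total RNA.

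Of 15923 probe sets, 57 were array controls, 12789 had 1 symbol in the platform annotation, 312 several and 2822 none, and by gene ID 12754 matched RefSeq, with 0 symbols changed. To each intensity 6.06 was added before log2, the 10th percentile over all arrays, which understates changes of dim probe sets. Probe sets with a mean under the 40th percentile (a log2 level of 5.78, or a signal of 49.0) were left out. limma 3.58.1 in R 4.3.3 fitted 6 group means with eBayes and a trend, two-sided, with Benjamini-Hochberg adjustment over 9520 probe sets and a threshold of 0.05. The code was tested on simulated data with 200 changed probe sets. Python 3.11.15 with pandas 2.3.3, numpy 2.4.6 and matplotlib 3.10.9 handled sequences and plots. The number of arrays limits the precision.

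The members and gene lists were chosen with earlier results of these data known. Named were every member probe set, the list genes past the threshold (in diet comparisons at most 3 each way, otherwise at most 5, or the 1 with the smallest p where none passed), and the 3 genes most correlated with each member. Where several probe sets share a list gene's symbol, the brightest stands for it. Alternatives changed the constant, scaling, filter, array weights, groups fitted, replicate block, the covariates and the arrays included, in 32 settings.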

Additional observations from a re-analysis of the deposited data

Results flagged for a closer look

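In groups of 4 arrays, 27 were tested for an array that stands apart, and chance sets 1 group in 20 apart. Gaps to the nearest neighbour are given as a share of the group's range in log2 level. Nlgn3 1387409_x_at on alcohol trained replicate 4 had a signal of 158 and a gap of 0.905. The same probe set on isocaloric trained replicate 4 had a signal of 92.7 and a gap of 0.849. Clstn1 on isocaloric trained replicate 2 had a signal of 2633 and a gap of 0.848.

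In 3 cases every array of a group moved one way and every array of another group the opposite way. For Nlgn1 the isocaloric minus control difference was lower in trained than in naive samples by a log2 difference of -0.19 (limma adjusted p = 0.712). For Nrxn2 1368875_a_at the trained minus naive difference of isocaloric samples was set against that of control samples, giving -0.16 (limma adjusted p = 0.677). For Clstn1 the trained minus naive difference was 0.12 higher in alcohol than in control samples (limma adjusted p = 0.775). None of the 3 passed the test of the difference itself, and each rests on control groups of 2 arrays.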

How the results depend on the processing

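In the diet comparisons, members called numbered 1 in alcohol against isocaloric, and 2 when arrays were centred on their median, when only the groups compared were fitted, or without either pair of control arrays. Array weights gave 4 and the Gapdh ratio as a covariate gave 0. In alcohol against control the 4 became 1 with a filter at the 60th percentile, which left 5 members tested, and 1 with the actin ratio as a covariate. In isocaloric against control the 1 became 2 with the Gapdh ratio, and 0 with the 60th percentile filter, only the groups compared, the actin ratio, without the arrays high in Ttr, and without the control pair not named with MAS5. Leaving out 1 array gave 0 to 2, 3 to 5 and 0 to 4 members in these 3 comparisons. Over all probe sets the counts moved too, from 291 to between 15 and 1207 in alcohol against isocaloric. The settings without the arrays high in Ttr or without the control pair not named with MAS5 were chosen after seeing the data. Training and training by diet gave 0 members in every setting run; a fit of only the groups compared is the main one for training.

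Small diet differences turned, with lowest values in alcohol against isocaloric of -0.057 for Nlgn2, -0.066 for Clstn1 and -0.031 for Nrxn2 1368875_a_at, in alcohol against control of -0.030 for Nrxn2, and in isocaloric against control of -0.14 for Nlgn1, -0.10 for Nrxn3, -0.10 for Nrxn2 and -0.046 for Clstn1. Training differences near 0 turned too, none past the threshold. Without the arrays high in Ttr, Nlgn1 gave 0.0026. Without the 2 control arrays named with MAS5, Nlgn3 1375494_a_at gave 0.068 and Nrxn3 0.0079. Without the other 2 control arrays, Clstn1 gave -0.024, Clstn3 -0.048 and Rbfox3 -0.0022. Leaving out 1 array gave ranges of -0.10 to 0.018 for Nlgn1, -0.13 to 0.020 for Nlgn3 1375494_a_at, -0.36 to 0.42 for Nlgn3 1387409_x_at, -0.21 to 0.032 for Nrxn3, -0.032 to 0.079 for Clstn1 and -0.021 to 0.13 for Clstn3. In training by diet the Gapdh ratio gave -0.00083 for Nlgn2 and -0.10 for Nrxn3, median centring gave -0.030 for Nrxn3, and leaving out 1 array gave -0.035 to 0.31 for Nlgn2 and -0.25 to 0.27 for Nrxn3. The causes were not tested.

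Deviations of same-numbered arrays correlated at -0.23 to 0.13 over 36 pairs, 4 of them over 0.1, and 3 of 18 arrays correlated best with their own number. Arrays of different number correlated at -0.35 to 0.35 over 96 pairs, 22 of them over 0.1. Pairing by replicate number was thus not visible, and the labels do not state one. With the number as a block, 1, 3 and 1 members were called in the 3 diet comparisons and 0 in the training ones, the Nlgn2 call against control was lost, Nlgn3 1387409_x_at gave -0.0090 with training, and no other member call changed. Of the named list calls the block lost 2 of 3 in alcohol against isocaloric, 9 of 15 in alcohol against control and 2 of 4 in isocaloric against control. Groups of 2 arrays limit the precision of every control and isocaloric naive value.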
